A study of Mus musculus with 17 samples.

Results

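The proteins of the cytosolic ribosome are encoded by a family of short, highly expressed genes, and their mRNA was followed here in cultured erythroid blasts of mice carrying a Spi1 transgene. A gene was taken as a member when its symbol began with Rpl or Rps and a number, or was Rpsa, Rplp0, Rplp1 or Rplp2. Pseudogene symbols (-ps), the Rps6 kinases (Rps6k), Rps27l and Rps19bp1 were left out. The rule found 92 members among the 33470 genes listed in at least 1 of 3 count tables, and 88 of them were listed in all 3 tables. There were 90 members among 26029 genes in the table of model 1, 91 among 31633 in a second table of model 1 and 88 among 24659 in the table of model 2. A filter on low counts left 82, 88 and 86 members for testing. The members that did not pass it had at most 9 counts in any library of the model 1 table (Rpl3l, Rpl39l, Rps3a3, Rps3a2, Rps23rg1, Rps12l1, Rpl6l and Rpl32l), 16 in the second table (Rpl3l, Rpl10l and Rps4l) and 14 in the model 2 table (Rpl3l and Rps12l1).

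The ribosome has a large subunit, built from ribosomal RNA and the RPL proteins, and a small subunit, built from ribosomal RNA and the RPS proteins. Ribosomal proteins are needed in near-equal numbers, and many of their mRNAs begin with a run of pyrimidines, the terminal oligopyrimidine motif, through which growth signals control their translation. Erythroid precursors make ribosomes at a high rate to translate globin. Inherited loss of 1 copy of several of these genes causes Diamond-Blackfan anaemia, a failure of red cell production. Mammalian genomes also carry many processed pseudogenes of ribosomal protein mRNAs, which are copies with no introns and with nearly the sequence of the mRNA.

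Libraries are named here by stage, L for leukaemic and PL for preleukaemic, and the mouse number of the labels. The cells were spleen blasts of sick TgSpi1 mice kept in culture with erythropoietin (EPO) and diluted 2 days before RNA extraction. Model 1 (strain DBA2JxFVB/N) had TgSpi1FA+/+ preleukaemic blasts of 4 mice (PL_138, PL_445, PL_451 and PL_479), which carry the Spi1 transgene and intact Fanca, TgSpi1FA-/- preleukaemic blasts of 3 mice (PL_40, PL_77 and PL_224) and TgSpi1FA-/- leukaemic blasts of 3 mice (L_26, L_28 and L_39), in which Fanca, a Fanconi anaemia DNA repair gene, was deleted. Model 2 (strain DBA2J) had TgSpi1FA+/+ preleukaemic blasts of 4 mice (PL_633, PL_663, PL_812 and PL_837) and TgSpi1FA+/+ leukaemic blasts of 3 mice (L_601, L_606 and L_921), the leukaemia having emerged after repeated blood transfusion. Preleukaemic blasts need EPO and form no tumour when grafted, leukaemic blasts do not need it, and every group carried the Spi1 transgene, which is expressed constitutively. The labels write the genotypes as TgSpi1Fanca.wt and TgSpi1Fanca.ko. The source label and the column names call PL_40, PL_77 and PL_224 leukaemic, whereas their titles and cell type label call them preleukaemic, and the latter was used.

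Total counts were 29964576 to 38217654 per library in the model 1 table, 37726753 to 40514205 in the model 2 table and 35497594 to 171572736 in the second table, which held 7 of the model 1 mice and no TgSpi1FA-/- preleukaemic mouse. Fanca had 889 to 2941 counts in the TgSpi1FA+/+ libraries of the model 1 table and 19 to 70 in the TgSpi1FA-/- libraries. Spi1 stood at 3.88 CPM (counts relative to the library total, scaled by TMM factors) in L_39 and at 220 to 1061 CPM in the other 9 libraries of that table, so results are also given without L_39 where it moved them. In the model 1 table PL_445 and PL_479 differed by a chi-square of 8.53 per degree of freedom, against 114 to 372 for the other pairs of libraries within a group. They still differed by more than counting noise and were kept as 2 samples. Each was left out in turn in the comparisons that include their group. In the second table the same 2 mice differed by 350, against 393 to 742 for the other pairs within a group. Whether PL_445 and PL_479 are independent in the model 1 table was not tested. If they are not, tests against their group understate its spread. The spread is estimated over all groups of that table, so the comparison within the TgSpi1FA-/- genotype could be affected too. Of the erythroid markers Gata1 (229 to 575 CPM) and Tfrc (724 to 2557 CPM) were present in every library of every table. The globin gene Hba-a2 reached at most 0.158 CPM. It does not stand for all globin genes, since Hbb-bt passed the filter on low counts in the model 1 table.

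In model 1 the share of all counts that fell on the members differed more between its tables than between groups (plot of summed shares). Model 2 had other mice, another strain and another library protocol, so its shares are read within its own table. In the model 1 table it was 1.49% to 1.82% in the 4 TgSpi1FA+/+ preleukaemic libraries, 1.45% to 1.69% in the 3 TgSpi1FA-/- preleukaemic libraries and 1.64% to 2.00% in the 3 TgSpi1FA-/- leukaemic libraries. In the second table the same mice gave 5.35%, 7.43%, 7.18% and 6.66% (PL_138, PL_445, PL_451 and PL_479) and 6.43%, 5.15% and 9.93% (L_26, L_28 and L_39). The highest of these values, L_39, belonged to the shallowest library of that table. In the model 2 table the preleukaemic shares were 7.004%, 9.42%, 10.1% and 6.74% (PL_633, PL_663, PL_812 and PL_837) and the leukaemic shares 11.1%, 12.0% and 15.1% (L_601, L_606 and L_921). The groups of model 2 did not overlap, with means of 8.32% ± 1.70 (SD, n = 4) and 12.7% ± 2.07 (SD, n = 3). In bulk RNA, fewer cells of a kind and less RNA per cell cannot be told apart. The genes of the mitochondrial ribosome, which is made in the same cells from a separate gene family, took 0.319% to 0.792% in all 3 tables. Their shares did not overlap between the groups of model 2 either, at 0.392% to 0.594% (preleukaemic) and 0.668% to 0.792% (leukaemic).

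**Figure D1:**
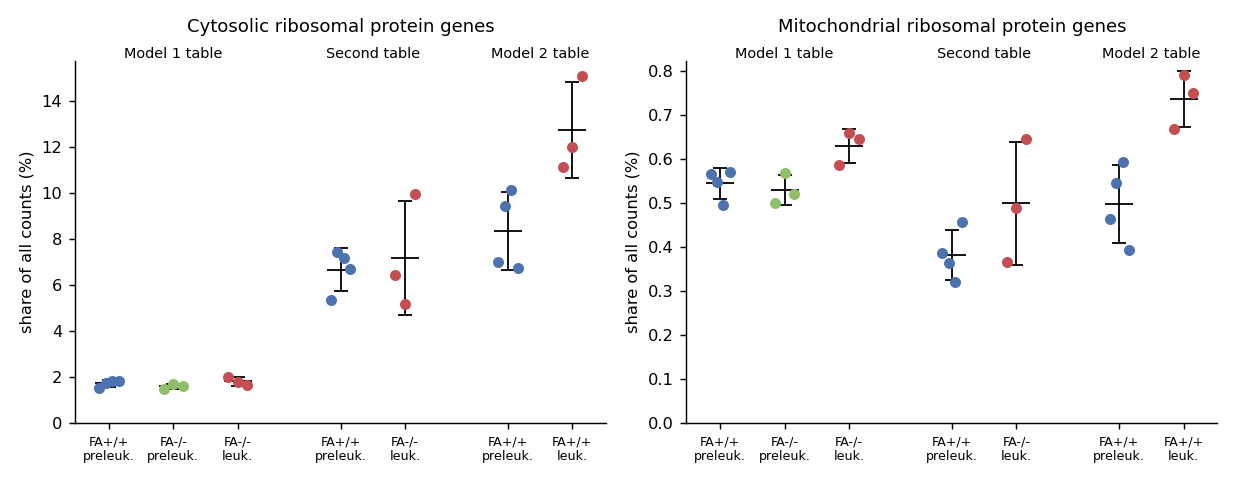
Share of all counts (%, linear axis from 0) that fell on the cytosolic ribosomal protein genes (left) and on the mitochondrial ribosomal protein genes (right); each point is a library, and bars are the group mean and SD. The cytosolic share stays at or below 2.00% in the model 1 table and reaches 5.15% to 15.1% in the other tables, whereas the mitochondrial share is 0.319% to 0.792% everywhere. In model 2 both shares are higher in every leukaemic library than in every preleukaemic one.

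The lower level of the members in the model 1 table was examined in the 7 mice present in both tables of model 1. Tables were made separately, so these ratios of mean CPM are a description without a test. Of the 79 members with a mean of at least 10 CPM in the second table, the median ratio of the model 1 table to the second table was 0.0739, a level 13.5-fold lower. The ratio was under 0.1 for 42 members (53.2%) and under 0.5 for 69 (87.3%). Over all 8698 genes at that level the median ratio was 1.10, with 1.48% under 0.1 and 8.12% under 0.5. It was 1.40 for 75 mitochondrial ribosome genes, 1.42 for 50 ribosome biogenesis genes and 1.09 for 34 translation factors. Taken mouse by mouse, the median ratio of the members lay between 0.0637 (L_39) and 0.120 (L_28), so every mouse showed it.

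The members were spread over more than 3 orders of magnitude in this ratio. Rps29, a zinc-binding protein of the small subunit mutated in Diamond-Blackfan anaemia, had 0.540, 0.530, 0.641 and 0.0952 CPM in the TgSpi1FA+/+ preleukaemic libraries of the model 1 table (PL_138, PL_445, PL_451 and PL_479) and 0.795, 0.434 and 0.761 CPM in the leukaemic libraries (L_26, L_28 and L_39). In the second table the same mice had 369.6, 789, 659 and 426 CPM and 369, 294 and 241 CPM. The mean was 811.8-fold lower in the model 1 table. Rpl23a, which lies near the exit of the peptide tunnel, was 615-fold lower (1.13 against 693 CPM). Rps6, the substrate of the S6 kinases, had a mean of 1.77 against 732 CPM. Rpl38 of the large subunit had 0.639 against 252 CPM, and Rps3a2, which the annotation calls a processed pseudogene, completed the lowest 5 with 0.0488 against 28.9 CPM.

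At the other end stood Rpl8, a protein next to the peptidyl transferase centre, with 1462, 1803, 1862 and 1808 CPM in the TgSpi1FA+/+ preleukaemic libraries of the model 1 table (PL_138, PL_445, PL_451 and PL_479) and 891, 1695, 1472 and 1199 CPM in the second table. Its ratio was 1.34. Rpl7l1, a paralogue of Rpl7, had 1.137 and Rpl4 of the large subunit had 0.873. Rpl13a had the highest ratio, 2.63, and 4 of 79 members were above 1. The 3 members of the P stalk, which recruits elongation factors, were among the less reduced, with a median 1.60-fold lower (Rplp1 0.776, Rplp2 0.623 and Rplp0 0.446). Among the fixed members the ratio was 0.800 for Rpl22, 0.454 for Rps14, 0.241 for Rps19, 0.0343 for Rpl5, 0.0273 for Rpl3, 0.0130 for Rpl11, 0.01004 for Rpsa and 0.00695 for Rps27a. The 19 Diamond-Blackfan anaemia members were a median 15.6-fold lower.

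The ratio followed how much of a member's coding sequence was also present elsewhere in the transcriptome (plot of ratio against shared words). For every member, each stretch of 50 coding bases was looked up in the annotated transcripts of all other genes (GENCODE M21, GRCm38), and the share found there was set against the ratio. Across 78 members with a coding sequence Spearman's rho was -0.81. Coding words were chosen after words over the whole transcript had been seen, which gave weaker values across 79 members, with a rho of -0.52 for words of 30 bases, -0.63 for 50 and -0.67 for 75. The number of pseudogenes sharing a word gave -0.56. These are across genes that share libraries, and descriptions only. The 67 members with 50% or more of their coding words in another gene had a median ratio of 0.0577, within a range of 0.00123 to 2.63. The 8 members with 10% to 50% had a median of 0.438. Under 10% the members ranged from 0.835 to 1.34, with Rps3 at the low and Rpl8 at the high end.

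**Figure D2:**
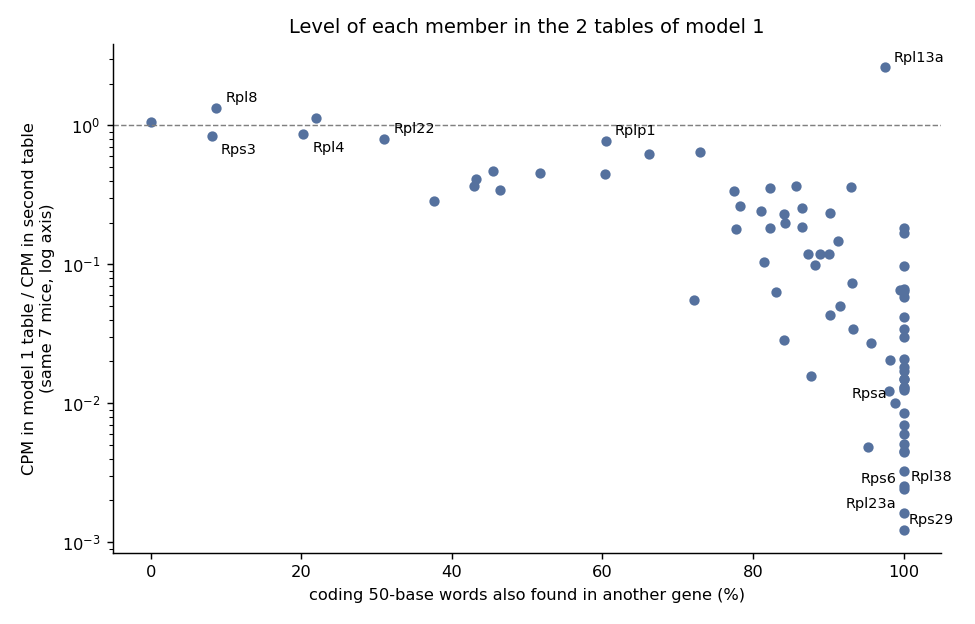
Ratio of mean CPM in the model 1 table to that in the second table (log axis, same 7 mice) against the share of a member's 50-base coding words that also occur in another gene; each point is 1 of 78 members and the dashed line marks equal levels. Members with few shared words lie near 1 and members whose coding words are all shared reach down to 0.00123, with Rpl13a as the exception above the line at 97.5%.

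To show what a shared word looks like, the middle 60 coding bases of 5 members are given above the same stretch of a pseudogene. The first 3 members are from the bottom of the ratio and the last 2 from the least shared members. Each pseudogene is the nearest among those searched, without gaps. The pseudogenes of a whole chromosome were not searched, so a closer copy may exist. Capitals in the pseudogene mark bases that differ from the member. Rps29 (chr12:69157722-69159186, minus strand, coding bases 55 to 114) and Gm14303 (chr2:172509521-172509691) were identical over the stretch.
Rps29: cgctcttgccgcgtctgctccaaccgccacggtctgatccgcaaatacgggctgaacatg
Gm14303: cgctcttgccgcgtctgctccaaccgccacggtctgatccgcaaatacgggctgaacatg
Rpl23a (chr11:78180932-78183584, minus strand, coding bases 205 to 264) was identical to Rpl23a-ps3 (chr14:34170655-34171122), and 28 pseudogenes shared at least 1 word with it.
Rpl23a: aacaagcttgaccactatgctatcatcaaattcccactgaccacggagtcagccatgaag
Rpl23a-ps3: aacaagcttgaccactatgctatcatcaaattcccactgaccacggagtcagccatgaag
Rps6 (chr4:86854660-86857412, minus strand, coding bases 344 to 403) was identical to Rps6-ps4 (chr2:75191073-75191822), with 14 pseudogenes sharing a word.
Rps6: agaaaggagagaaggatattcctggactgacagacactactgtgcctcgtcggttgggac
Rps6-ps4: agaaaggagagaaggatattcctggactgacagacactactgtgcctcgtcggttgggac
Rps3 (chr7:99477896-99483738, minus strand, coding bases 335 to 394) differed from Gm8130 (chr16:23050282-23050851) at 2 bases, and 8.09% of its coding words were shared.
Rps3: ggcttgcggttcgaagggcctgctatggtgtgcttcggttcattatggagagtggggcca
Gm8130: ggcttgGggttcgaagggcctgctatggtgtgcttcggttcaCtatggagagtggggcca
Rpl8 (chr15:76904078-76906314, plus strand, coding bases 356 to 415) differed from Gm13890 (chr2:105537093-105537482) at 12 bases, and 8.73% of its words were shared.
Rpl8: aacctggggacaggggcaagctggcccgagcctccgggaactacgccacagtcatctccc
Gm13890: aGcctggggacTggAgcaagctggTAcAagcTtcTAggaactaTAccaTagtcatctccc

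Identical sequence in several genes lets a read align to more than 1 place, and how such reads were counted is not given in the sources used here for either table. The labels of model 1 describe a pair of library protocols and assign every sample to the second of them (400 ng of RNA, 8 minutes of fragmentation). The libraries behind the second table were not described, so counting and library preparation cannot be told apart as sources of the difference. The summed share of genes that share sequence with the members was not higher in the model 1 table. What became of the members' reads was not tested. The 1141 genes listed there that share a 50-base word with a member summed to 1.32% to 1.47% of its counts, against 1.45% to 1.53% for 1231 such genes in the second table. Genes named as ribosomal protein pseudogenes took 0.0362% to 0.0717% of counts in the model 1 table and 0.0768% to 0.132% in the second.

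A few members were low in every table or went the other way, and their exons overlap another gene on the same strand. Rpl24 had 0.110 to 0.525 CPM in the model 1 table, 0.731 to 1.20 CPM in the second and 0.267 to 1.17 CPM in the model 2 table, and 47.0% of its exonic bases lie in Gm28037. Rpl13a overlaps Gm45713 and a microRNA and a small nucleolar RNA gene over 35.4% of its exonic bases. Reads in such overlaps cannot be assigned to 1 gene, so the levels of these members are uncertain. Rps2, which lies at the mRNA entry of the small subunit and shares words with 71 pseudogenes, had low and high libraries in the model 1 table, in part within a group. It had 5.91 CPM in PL_138 and 44.5, 60.0 and 48.3 CPM in the other 3 TgSpi1FA+/+ preleukaemic libraries, and 47.0 CPM in PL_40 against 6.05 and 9.22 CPM in PL_224 and PL_77. The 3 leukaemic libraries had 5.26, 7.003 and 6.44 CPM. Rps2 was chosen after its values were seen, and other members of this table also had a library far below the rest of its group.

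Levels between members were compared per kilobase of the annotated principal transcript. In the model 1 table the highest were among others Rpl8 (1992 CPM per kb), Rpl4 (1825) and Rplp1 (1635). In the second table they were Rps12 (2966 CPM per kb), Rplp1 (2215), Rpl4 (2162) and Rps27a (2122), and in the model 2 table Rps14 (4670.2), Rps27a (4209.8), Rps12 (4139) and Rplp1 (3818). Rps27a, whose product is a fusion of ubiquitin and a ribosomal protein, was thus near the top of both tables in which it was not reduced. The transcripts annotated for Rpl5 and Rps20 are longer than 2000 bases, which lowers their values on this scale.

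The paralogues, close relatives of a member that are often expressed in few tissues, were mostly at low levels. Rpl3l, a muscle gene, had at most 0.102 CPM in any library. Rpl10l and Rps4l were listed only in the second table for model 1, with at most 0.0341 and 0.0819 CPM, and Rpl39l had at most 0.840 CPM (PL_479, second table). Rpl36al had 4.43 to 5.75 CPM in the model 1 table, 0.410 to 1.23 in the second and 0.198 to 1.142 in the model 2 table. Rps27rt stayed between 0.128 and 14.1 CPM across the 3 tables. Rpl7l1 (147 to 337 CPM) and Rpl22l1 (9.22 to 626 CPM) were the only paralogues above 20 CPM in any library.

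Whether leukaemic progression on the Fanca-null background changed the members was asked by comparing TgSpi1FA-/- leukaemic with TgSpi1FA-/- preleukaemic blasts in the model 1 table. A gene was called where it changed by 1.5-fold or more and edgeR's quasi-likelihood test, adjusted over all genes, gave p under 0.05. Of 82 members tested, 4 rose (Rpl22l1, Rpl27a, Rps21 and Rpl31) and none fell, with 8 members at an unadjusted p under 0.05 and 6 calls by DESeq2. In the background 13.3% of the 13393 genes tested were called in either direction, 32.4% had an unadjusted p under 0.05 and DESeq2 called 19.8%. All 3 counts of members lay below these shares. In all, 53 members had a higher and 29 a lower fitted level, with a median log2 fold change of 0.13 against -0.00 over all genes.

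Rpl22l1, the paralogue that can take the place of Rpl22 and is repressed by it, had 63.6, 42.7 and 45.2 CPM in the leukaemic libraries (L_26, L_28 and L_39) and 9.22, 13.0 and 20.1 CPM in the TgSpi1FA-/- preleukaemic libraries (PL_77, PL_224 and PL_40). Every leukaemic library was above every preleukaemic one, and the log2 fold change was 1.84 ± 0.31 (SE; adjusted p = 0.0116, edgeR's quasi-likelihood test). Rpl22 itself had 386, 345 and 354 CPM against 365, 484 and 278 CPM, and the groups overlapped (-0.06 ± 0.22 on the log2 scale). Rpl27a of the large subunit had 92.0, 95.8 and 91.9 CPM in the leukaemic libraries and 38.7, 53.3 and 47.3 CPM in the preleukaemic libraries. Its log2 fold change was 1.01 ± 0.14 (SE; adjusted p = 0.00556, edgeR's quasi-likelihood test), and the leukaemic values lay within 4 CPM of each other.

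Rps21, a small subunit protein, had 215, 267 and 268 CPM against 157, 154 and 128 CPM, a log2 fold change of 0.77 ± 0.16 (SE; adjusted p = 0.0205, edgeR's quasi-likelihood test). Rpl31, a Diamond-Blackfan anaemia gene of the large subunit, had 34.1, 45.6 and 42.1 CPM against 20.9, 29.7 and 19.1 CPM, a log2 fold change of 0.80 ± 0.23 (SE; adjusted p = 0.0481, edgeR's quasi-likelihood test). Neither pair of groups overlapped. All 4 are reduced in this table against the second one, and the coding words of Rpl27a and Rpl31 are all shared with other genes. Rpl22l1 and Rpl27a kept their call when any 1 library of the compared groups was left out. In all, 2 members were called without L_28, without L_39, without PL_40 or without PL_224. The TgSpi1FA+/+ libraries, which share this fit, were not left out for this comparison.

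**Figure D3:**
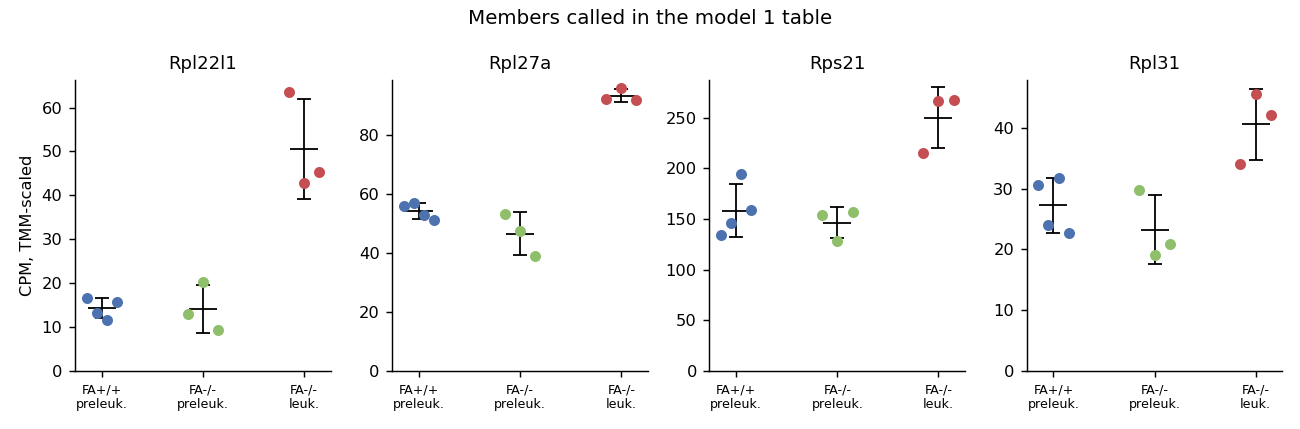
CPM (TMM-scaled, linear axes from 0) of the 4 members called between TgSpi1FA-/- leukaemic and TgSpi1FA-/- preleukaemic blasts, in all 10 libraries of the model 1 table; points are libraries, and bars are the group mean and SD. The 3 leukaemic libraries lie above all 7 preleukaemic libraries for each gene, for example at 42.7 to 63.6 CPM against 9.22 to 20.1 CPM for Rpl22l1.

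The fixed members did not pass the test in this comparison. Rps14, whose loss causes the anaemia of the human 5q- syndrome, came nearest with 531, 491 and 469 CPM against 197, 388 and 319 CPM, a log2 fold change of 0.72 ± 0.23 (SE; adjusted p = 0.0613, edgeR's quasi-likelihood test). Rpl5 and Rpl11, which with the 5S rRNA bind Mdm2 and so stabilise p53, had log2 fold changes of 0.41 ± 0.32 and -0.01 ± 0.36. Rps19, the gene most often mutated in Diamond-Blackfan anaemia, had -0.01 ± 0.15, Rpl3 -0.69 ± 0.33, Rplp0 0.06 ± 0.20 and Rpsa -0.18 ± 0.18. Of the 19 Diamond-Blackfan anaemia members 12 were higher and 7 lower, with Rpl31 as the called one.

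Genes around the ribosome were read against the same background of 13.3% called. Npm1 and Ncl, nucleolar proteins of ribosome assembly, rose (0.67 ± 0.11 and 0.70 ± 0.14 on the log2 scale) among 50 ribosome biogenesis genes, of which 2 rose and none fell. Among 34 translation factors Eef1a1 and Eif2s2 rose (0.68 ± 0.15 and 0.71 ± 0.13) and Eif4g2 fell (-0.83 ± 0.20). Of 15 genes of RNA polymerase I, which transcribes ribosomal RNA, Polr1c rose (0.86 ± 0.17) and Taf1c fell (-0.67 ± 0.19). Of 17 genes of growth control of ribosomal protein mRNAs, none passed edgeR's quasi-likelihood test, with 7 at an unadjusted p under 0.05 and 1 call by DESeq2, and 11 had a lower fitted level. Of 13 genes of the p53 pathway, Mdm4, an inhibitor of p53, rose (1.41 ± 0.25), as did Bbc3 and Phlda3, and Ccng1 fell (-1.72 ± 0.31). Of 78 mitochondrial ribosome genes 7 rose and 1 fell, led by Mrps21 (1.78 ± 0.23) and Mrpl9 (1.59 ± 0.42), with Mrpl52 falling (-0.78 ± 0.21).

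Markers of other cell types and states moved too. Of 15 erythroid markers tested 13 had a lower fitted level and 3 fell (Hbb-bt, Ermap and Klf1), and the summed level of the list was 2790 to 5812 CPM in the leukaemic libraries and 7418 to 7609 CPM in the TgSpi1FA-/- preleukaemic libraries. All 4 megakaryocyte markers tested had a higher fitted level and Itga2b rose (3.20 ± 0.38 on the log2 scale), and the sum of that list was 166 to 251 CPM in the leukaemic against 31.1 to 40.03 CPM in the preleukaemic libraries. Of 2 stromal or endothelial markers tested Kdr rose (5.61 ± 0.82), while the sum of the list overlapped between the groups (8.69 to 35.5 against 10.47 to 274 CPM). No T or B cell marker passed the filter on low counts. None of the 5 markers of granulocytes, macrophages and mast cells tested passed edgeR's quasi-likelihood test, 1 of them had an unadjusted p under 0.05 and DESeq2 called 0. The part of these markers in the members' values was not tested.

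The effect of Fanca loss before leukaemia was read from TgSpi1FA-/- against TgSpi1FA+/+ preleukaemic blasts in the model 1 table. None of the 82 members was called by edgeR's quasi-likelihood test, 4 had an unadjusted p under 0.05 and DESeq2 called 0. In the background 0.00747% of all genes were called by edgeR, 8.65% had an unadjusted p under 0.05 and DESeq2 called 1.76%. The median log2 fold change of the members was -0.05, with 35 higher and 47 lower. The 4 members were Rpl3 (0.93 ± 0.30), Rpl10a (0.91 ± 0.33) and Rpl23a (1.03 ± 0.45), which were higher in TgSpi1FA-/- blasts, and Rps14 (-0.50 ± 0.21), which was lower. Rpl3, of the peptidyl transferase centre, had 48.8, 68.0 and 33.7 CPM (PL_77, PL_224 and PL_40) against 30.1, 25.6, 32.6 and 16.7 CPM (PL_138, PL_445, PL_451 and PL_479), and the groups did not overlap.

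TgSpi1FA-/- leukaemic blasts were also compared with TgSpi1FA+/+ preleukaemic blasts, once in each table of model 1. Fanca genotype and leukaemic stage change together in this comparison and cannot be told apart. The 3 leukaemic libraries of the model 1 table serve both this comparison and the one within the TgSpi1FA-/- genotype, so the comparisons are not independent. In the table of model 1 the members that rose were 3 of 82 and none fell, while 7.01% of all genes were called in either direction. The 3 members were Rpl22l1 (1.82 ± 0.28; adjusted p = 0.0144), Rpl27a (0.78 ± 0.13; adjusted p = 0.0152) and Rps21 (0.66 ± 0.15; adjusted p = 0.0355), all by edgeR's quasi-likelihood test. At an unadjusted p under 0.05 there were 7 members higher and 2 lower, and DESeq2 called 4 up and 1, Rps2, down. Over all genes these shares were 27.2% at an unadjusted p under 0.05 and 14.8% by DESeq2, so the members again lay below them. No member passed edgeR's test without L_28, without PL_445 or without PL_479. The TgSpi1FA+/+ values were 16.6, 13.2, 11.7 and 15.8 CPM for Rpl22l1 and 55.8, 57.0, 52.8 and 51.1 CPM for Rpl27a (PL_138, PL_445, PL_451 and PL_479), all below the leukaemic ones. Of 82 members 60 were higher and the median log2 fold change was 0.18, with 0.0711 without PL_138.

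In the second table no member was called by edgeR's quasi-likelihood test (smallest adjusted p = 0.205), 1 of 88 had an unadjusted p under 0.05 and DESeq2 called 0. In the background 1.59% of all genes were called by edgeR, 18.6% had an unadjusted p under 0.05 and DESeq2 called 9.79%. Exactly 44 members were higher and 44 lower, with a median log2 fold change of -0.01, which became -0.29 without L_39. The 1 member was Rps29, lower in the leukaemic blasts with 369, 294 and 241 CPM against 369.6, 789, 659 and 426 CPM (-0.89 ± 0.32). The members called in the model 1 table were less separated here. Rpl22l1 had 134, 74.4 and 355 CPM (L_26, L_28 and L_39) against 81.4, 202, 37.9 and 185 CPM (PL_138, PL_445, PL_451 and PL_479), a log2 fold change of 0.57 ± 0.67. Rpl27a had 380.3, 314 and 669 CPM against 283, 409, 374 and 308 CPM (0.40 ± 0.30), and Rps21 354, 399 and 828 CPM against 194, 435, 505 and 268 CPM (0.59 ± 0.42). The groups overlapped for all 3 genes, and the order of the 7 mice for Rpl22l1 was not that of the model 1 table. Mrps21, of the mitochondrial ribosome, was called in both tables (1.36 ± 0.21 and 1.71 ± 0.18).

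In model 2 no member passed the test, while most members had a higher fitted level in leukaemic than in preleukaemic blasts. Other short mRNAs were higher too, and offsets by transcript length class lowered the members' median log2 fold change from 0.72 to 0.22 and the members with a higher level from 83 to 65. They lowered the members at an unadjusted p under 0.05 from 46 to 16. Of 86 members tested 83 had a higher fitted level, against 48.4% of all 12970 genes. The median log2 fold change was 0.72 (1.64-fold), against -0.03 over all genes. For 48 members every leukaemic library was above every preleukaemic one, which held for 9.65% of all genes. An unadjusted p under 0.05 was reached by 46 members, all of them higher in the leukaemic blasts, against 8.59% of all genes in that direction and 19.9% in either. After adjustment edgeR's quasi-likelihood test called 0% of genes and no member (smallest adjusted p = 0.162). DESeq2 called 3 members (Rpl34, Rps27 and Rps3a1) and 3.45% of genes. The large and small subunits were alike, with 50 of 52 members higher and a median of 0.73 for the RPL genes, and 33 of 34 higher and a median of 0.66 for the RPS genes. Without L_921 the median was 0.55 and 24 members had an unadjusted p under 0.05.

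The members with the largest differences were Rpl34 and Rps27, and these, with Rpl28, Rps4x, Rps26 and Rps3, were chosen after their values were seen. Rpl34 of the large subunit had 1372, 2186 and 1299 CPM in the leukaemic libraries (L_601, L_606 and L_921) and 456, 679, 742 and 418 CPM in the preleukaemic libraries (PL_633, PL_663, PL_812 and PL_837), a log2 fold change of 1.497 ± 0.30. Rps27, a zinc-binding protein of the small subunit, had 1054, 1320.3 and 911 CPM against 361, 485, 450.9 and 322 CPM (1.44 ± 0.22). The groups did not overlap in either gene. Rps21, which was called in model 1, had 926, 1061 and 798 CPM against 269, 446, 622 and 243 CPM (1.23 ± 0.34).

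Among the fixed members Rpl5 had 2027, 2370.3 and 4578 CPM against 1082, 1439, 1855 and 1024 CPM (1.15 ± 0.35), and its partner Rpl11 had 1295, 1435 and 1648 CPM against 796, 945, 1178 and 634 CPM (0.72 ± 0.25). For both genes all 3 leukaemic libraries lay above all preleukaemic ones, and neither passed the adjusted test. Rps14 had 3681, 3619 and 4252 CPM against 1993, 2078, 2760.3 and 1134 CPM (0.95 ± 0.30). Rps19 had 1695, 1781 and 2156 CPM against 1027, 1428, 1565 and 901 CPM (0.61 ± 0.25). Rpl22, the repressor of Rpl22l1, had 897, 773 and 781 CPM against 426, 507, 578 and 342 CPM (0.82 ± 0.22), again without overlap. All 19 Diamond-Blackfan anaemia members were higher, 13 of them at an unadjusted p under 0.05, and their median was 0.81. The whole family was alike, with 83 of 86 members higher and 46 higher at that p, against 48.4% and 8.59% of all genes. With the offsets by transcript length class Rps26 (-0.41 ± 0.16) and Rps29 (-0.13 ± 0.18) were among those with a lower fitted level.

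Other members overlapped between the groups. Rplp0 of the P stalk had 2652, 2889.7 and 6304 CPM against 1869, 3199, 3008 and 2035 CPM, so that L_921 carried most of its difference (0.64 ± 0.37). Rps6 had 497, 539 and 1569 CPM against 758, 957, 481 and 630.3 CPM (0.30 ± 0.45), and Rpl22l1 had 96.2, 119 and 626 CPM against 239, 194, 65.1 and 66.4 CPM (0.99 ± 0.76). In both genes L_921 alone was high. Rpl28 (-0.03 ± 0.19), Rps4x (-0.01 ± 0.21) and Rpl4 (-0.12 ± 0.26) were the 3 members with a lower fitted level. Rpl4 had 3016, 3111 and 5267 CPM against 4479, 4043, 4126 and 3878 CPM. Rps3, the small subunit protein that also acts in DNA repair, had 8337 CPM in PL_812 and 2062 to 2930.0 CPM in the other preleukaemic libraries, against 3623 to 5160.4 CPM in the leukaemic ones.

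**Figure D4:**
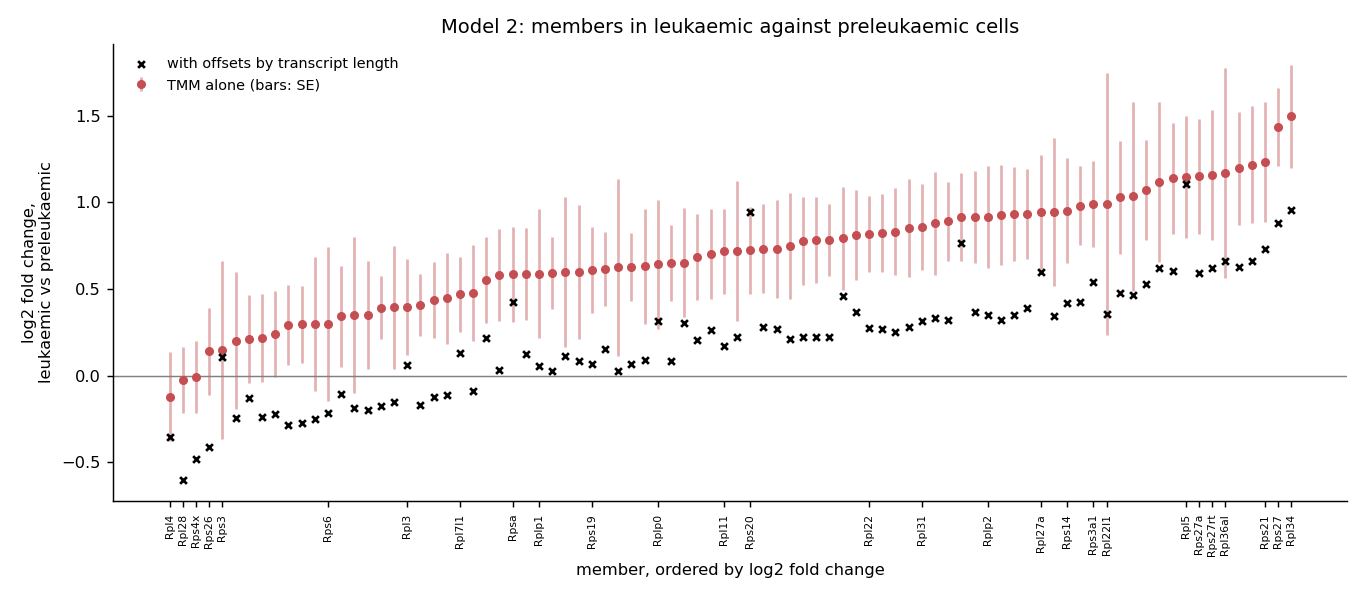
Log2 fold change of each of the 86 tested members between TgSpi1FA+/+ leukaemic and preleukaemic blasts of model 2, ordered by size; circles with bars are the estimate and SE with TMM scaling alone, and crosses the estimate after offsets by transcript length class, with names under part of the members. Circles lie above 0 for 83 members and run from -0.12 to 1.497, and crosses lie above 0 for 65 members.

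Ribosomal protein mRNAs are short, and in model 2 short mRNAs as a class were higher in the leukaemic libraries (plot by transcript length). Genes outside the family with principal transcripts under 600 bases had a median log2 fold change of 0.64 (n = 169, 79.3% higher). The median was 0.49 at 600 to 1000 bases (n = 621), 0.19 at 1000 to 2000 (n = 2527), -0.14 at 2000 to 4000 (n = 4414) and -0.44 over 4000 bases (n = 2917). Members had 0.85 under 600 bases (33 of 33 higher), 0.63 at 600 to 1000 (33 of 35) and 0.61 at 1000 to 2000 (15 of 16). A member thus stood a median 0.23 above the other genes of its own length class, with 61 members above and 25 below. In the comparisons of model 1 the members' medians were 0.07, 0.02 and 0.17 above their class in the model 1 table and -0.13 from it in the second table.

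The same gradient showed library by library. The median of genes under 1000 bases less that of genes over 4000 bases, each as a log2 deviation from the gene's mean over the table, was 0.378, 0.520 and 0.619 in the leukaemic libraries (L_601, L_606 and L_921) and -0.691, -0.142, 0.166 and -0.868 in the preleukaemic libraries (PL_633, PL_663, PL_812 and PL_837). The members' own medians were 0.197, 0.345 and 0.640 and -0.492, -0.0336, 0.0155 and -0.652 in the same libraries. The 7 libraries stood in the same order by both measures.

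With offsets that removed the median difference of each of 20 length classes, estimated from genes outside the family, the members' median was 0.22, with 65 of 86 higher. At an unadjusted p under 0.05, 13 members were higher and 3 lower (Rpl28 -0.61 ± 0.17, Rps4x -0.48 ± 0.18 and Rps26 -0.41 ± 0.16) or 16 of 86, against 15.7% of all genes in either direction. No member passed the adjusted edgeR quasi-likelihood test with or without the offsets. Rpl5 (1.11 ± 0.32), Rpl34 (0.96 ± 0.22) and Rps27 (0.88 ± 0.18) stayed above the median that all members had before the offsets. Rps20 (0.95 ± 0.28) and Rps21 (0.73 ± 0.23) were among the others above it. The transcripts annotated for Rpl5 and Rps20 are 2045 and 3706 bases long, so their offsets are those of longer genes. The model 2 libraries were made from 300 ng of RNA with 2 minutes of fragmentation in both groups.

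**Figure D5:**
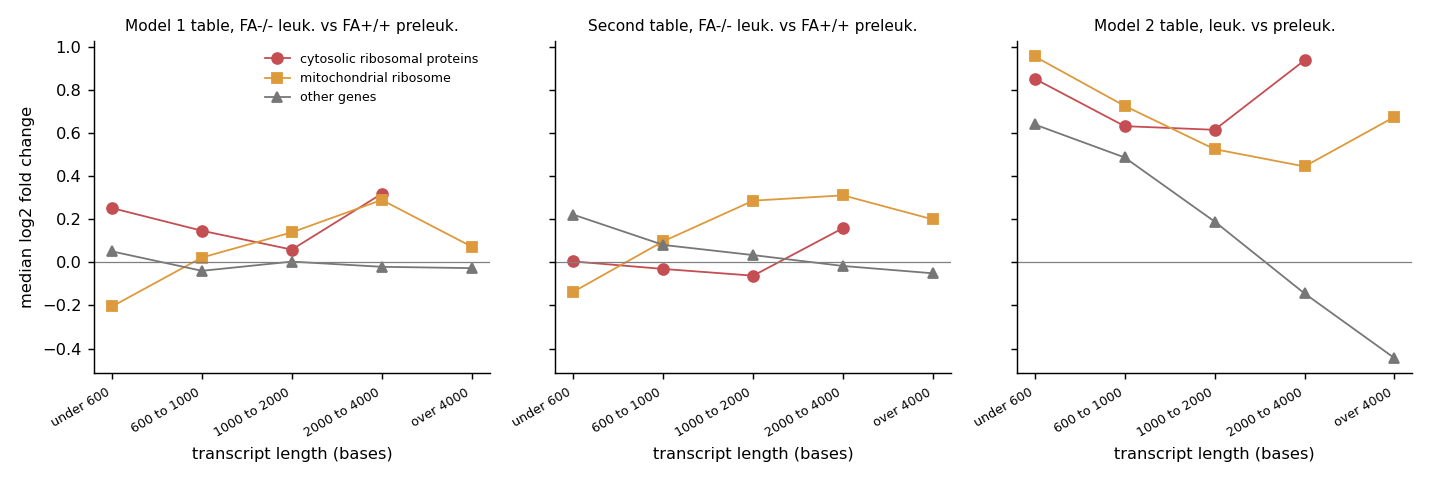
Median log2 fold change of leukaemic against TgSpi1FA+/+ preleukaemic blasts by length of the principal transcript in bases, in the 3 tables. Lines are cytosolic ribosomal protein genes, mitochondrial ribosome genes and all other genes. The leukaemic blasts are TgSpi1FA-/- in model 1 and TgSpi1FA+/+ in model 2. Other genes fall from 0.64 in the shortest to -0.44 in the longest class in model 2. They go from 0.05 in the shortest to -0.03 in the longest class in the model 1 table. In the second table they fall from 0.22 in the shortest class to -0.02 at 2000 to 4000 bases. The last point of the cytosolic line rests on 2 members.

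Gene groups near the family differed in model 2. Of 79 mitochondrial ribosome genes 72 were higher, 39 of them at an unadjusted p under 0.05, with a median of 0.64 and a median 0.36 above their length class. Translation factors were divided, with 19 of 34 higher and a median of 0.15. Ribosome biogenesis genes had 22 of 50 higher and a median of -0.07, and RNA polymerase I genes 8 of 15 and 0.02. Growth control genes had 4 of 17 higher and a median of -0.45, and 6 of them were lower at an unadjusted p under 0.05. No gene of these lists passed the adjusted edgeR test in this table. DESeq2 called 1 mitochondrial ribosome gene higher, and 5 translation factors, 1 biogenesis gene and 1 growth control gene lower. The pseudogenes named after members had 79 of 91 higher and a median of 0.50.

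Other cell markers also moved between the groups of model 2. All 15 erythroid markers tested had a lower fitted level in the leukaemic blasts, and the sum of the list was 3919 to 6976 CPM against 6773 to 11360.0 CPM. All 5 mast cell or basophil markers tested were higher, with a sum of 92.1 to 154 CPM against 3.71 to 59.1 CPM. No T cell, B cell, granulocyte or stromal marker passed the filter on low counts, and their part in the members' values was not tested.

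Annotated start sites were examined because the pyrimidine run at the start of these mRNAs is their shared control element. A RefSeq promoter window (GRCm38.p6) was found for 67 members. A C followed by 4 letters that are each C or T began at the annotated start in 15 of 67 members (22.4%), against 3.01% of 27025 genes. The letters CCGGAAG, searched on both strands over the whole window, were found in 25 of 67 members (37.3%) and 9.93% of all genes. A match is a description of these letters, and an annotated start that is off by a few bases misses the run. The windows of 5 members are given with 12 bases before the start and 18 from it, with the pyrimidine run in capitals. Rpl35 (chr2:39005114-39005143, minus strand), Rpl15 (chr14:18270969-18270998, minus strand) and Rps6 (chr4:86857350-86857379, minus strand) had long runs, and Rps27 (chr3:90213631-90213660, minus strand) and Rplp2 (chr7:141447639-141447668, plus strand) shorter ones.
Rpl35: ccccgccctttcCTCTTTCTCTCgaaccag
Rpl15: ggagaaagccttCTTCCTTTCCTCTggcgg
Rps6: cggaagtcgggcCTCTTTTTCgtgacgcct
Rps27: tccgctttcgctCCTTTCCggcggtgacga
Rplp2: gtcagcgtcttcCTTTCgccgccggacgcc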

How the data were processed

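RNA-seq of polyA RNA (TruSeq Stranded mRNA) was measured in blasts of 17 mice. The values are raw read counts per gene, deposited by the authors as 3 tables with 10, 7 and 7 libraries. The submitters' processing notes name bcl2fastq 2.17.1.14, STAR 2.5.3a and HTSeq 0.6.1p1 with mm10 and GRCm38, without saying which table each made. How the second table was made is not given in the sources used here. Members, gene lists and tests were chosen with earlier results of these data known.

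Samples were grouped by their titles and compared within a table only. Genes were filtered with edgeR's filterByExpr, scaled by TMM and tested with edgeR's quasi-likelihood test (edgeR 4.0.16, limma 3.58.1, R 4.3.3) over all genes of a table, with all its groups in the fit. A call needed p under 0.05 after Benjamini-Hochberg adjustment and a change of 1.5-fold or more. The test was checked on simulated data, where at the spread of these libraries it missed most of the changed genes, most often in the second table and in model 2, so an absence of calls there does not show that a member did not change. CPM values here are TMM-scaled except in ratios between tables, which use library totals. Each library is 1 mouse by its label, and p-values measure the spread between these libraries.

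Alternatives were DESeq2 1.42.0, its size factors, library totals, factors without the members, no low-count filter or 1 CPM in 3 libraries, adjusted p alone and only the compared groups. Each library was also left out, for the comparisons that include its group. Offsets by transcript length class (20 classes), the count at an unadjusted p in model 2 and leave-outs for shares and for ratios other than those without PL_445 or PL_479 were chosen after seeing the data. The genes named were the called members (up to 6 each way), 12 fixed members, 8 paralogues, the 5 highest and 5 lowest ratios between tables and up to 3 called genes each way per list. Others are marked as chosen after their values were seen. Rpl28, Rps3, Rps4x, Rps20, Rps26, Rps27, Rpl34, Rps2, Rpl24, Rpl10a, Rps3a1 and Rps12 are of that kind, as are the sequences shown. Coding and pseudogene sequences came from GENCODE M21 transcripts. Depth limits the model 1 table most for members under 1 CPM. One member is not reported by name here.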

Additional observations from a re-analysis of the deposited data

Results flagged for a closer look

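In a group of 4 libraries, 1 library stood apart from the other 3 (Dixon's test at its 95% critical value) in 9 of 111 groups of values examined for the named members and the summed share, or 8.11%. Chance gives about 1 in 20 for independent groups of values. These genes share their libraries and part of them were chosen after their values were seen, so the rate is a description only. In the TgSpi1FA+/+ preleukaemic libraries of the model 1 table PL_138 was the low one each time, with Rpl8 at 1462 CPM (others 1803 to 1862), Rps26 at 223.7 CPM (others 278.3 to 279.4) and Rpl38 at 0.3692 CPM (others 0.5769 to 0.6029). PL_138 was also low for Rpl34 in the second table, at 303.3 CPM against 439.1 to 449.4 CPM. In the preleukaemic libraries of model 2 PL_663 was high for Rplp2 (712.4 CPM, others 340.6 to 379.0), Rpl27a (739.2 CPM, others 349.7 to 384.9) and Rpl36al (0.9247 CPM, others 0.1978 to 0.3199). PL_812 was high for Rps3 (8337 CPM, others 2062 to 2930.0) and Rps27rt (7.998 CPM, others 4.336 to 4.748).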

How the results depend on the processing

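Model 2 rested most on the scaling by length: with offsets by transcript length class the members' median was 0.2246 and 16 had an unadjusted p under 0.05. DESeq2 called 3 members in model 2 and 5 in TgSpi1FA-/- leukaemic against TgSpi1FA+/+ preleukaemic blasts of the model 1 table (cause not tested). Shares with a denominator without globin and the 10 highest genes, members among them also dropped, were 1.5668% (leukaemic), 1.365% (TgSpi1FA-/- preleukaemic) and 1.4636% (TgSpi1FA+/+ preleukaemic) in the model 1 table. With 1 library of the compared groups left out, the members called ranged from 2 to 4 (TgSpi1FA-/- leukaemic against preleukaemic), from 0 to 4 (leukaemic against TgSpi1FA+/+) and were 0 elsewhere. Medians ranged from 0.0459 to 0.2161, from 0.0711 to 0.2342 and, for TgSpi1FA-/- against TgSpi1FA+/+ preleukaemic blasts, from -0.1058 to 0.0446. In the second table they ranged from -0.285 to 0.1336 and in model 2 from 0.5498 to 0.8285, with 24 to 53 members at an unadjusted p under 0.05. Mean shares ranged from 1.6972% to 1.8766%, 1.5284% to 1.6476% and 1.6751% to 1.7848% in the model 1 table (leukaemic, TgSpi1FA-/- and TgSpi1FA+/+ preleukaemic), 5.792% to 8.1828% and 6.3963% to 7.0896% in the second, and 11.5537% to 13.5242% and 7.721% to 8.8439% in model 2 (leukaemic, then preleukaemic). The median ratio between tables ranged from 0.07042 to 0.08201, and was 0.07347 with TMM. For named genes, 2455 of 2789 values kept their side of the threshold and direction, 141 lost a call, 6 gained one, 187 uncalled values changed sign and no called value did. No paired analysis was possible because the groups share no replicate numbers.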
